A study of Saccharomyces cerevisiae with 4 samples.

Results

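The genes studied here encode the proteins of the large subunit of the cytosolic ribosome in the budding yeast Saccharomyces cerevisiae. They were chosen by a rule on names, with earlier results of these data known. The rule takes every gene called RPL with a number and an optional A or B, together with RPP0, RPP1A, RPP1B, RPP2A and RPP2B of the ribosomal stalk. The gene tables list 81 such genes among 7126 features. They encode 46 proteins, since 70 of the genes form 35 A/B paralog pairs and 11 have no second copy. Of the 358 intron records in the intron tables, 55 lie in these genes, and 29 of those are on the 9 chromosomes where introns were counted.

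Large-subunit proteins are made in the cytoplasm. Most are imported into the nucleus and built onto ribosomal RNA in the nucleolus, while some join later in the cytoplasm. The particle leaves through the nuclear pore with the export receptors Xpo1 and Mex67 among its carriers. Mex67 is also the main exporter of messenger RNA. In growing yeast the ribosomal protein genes are among the most strongly transcribed, many are driven by the factor Rap1, and they hold a large part of the introns that the cell splices. Most were kept in 2 copies after the genome duplication.

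Poly(A) RNA was sequenced from an xpo1-1 mex67-5 strain, which carries mutant alleles of both receptors (2 libraries), and from a wild-type strain (2 libraries). Both strains were grown overnight at 25 °C and moved to 37 °C for 1 h before harvest, so the wild type saw the same warm shift. The labels give no other allele, marker or strain background, and the study compared splicing in these strains. Reads assigned to genes numbered 62205252 and 50843634 in the xpo1-1 mex67-5 libraries, against 49865570 and 49321384 in the wild-type libraries. Nothing in the labels says that the libraries of a strain came from separate cultures, so the p-values below measure the spread between libraries, which may be technical. All levels are shares of a library, and fewer transcripts per cell cannot be told apart from a change in the rest of the RNA.

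The large-subunit genes as a group took up 0.567% and 0.562% of all gene reads in the xpo1-1 mex67-5 libraries, against 8.83% and 8.69% in the wild-type libraries. The means were 0.565% ± 0.0036 and 8.76% ± 0.105 (SD, n = 2 each), a 15.5-fold lower share in xpo1-1 mex67-5. An exact two-sided permutation test gave p = 0.333, which is the smallest p that 2 against 2 libraries allow. The genes of the small subunit moved in the same way, at 0.416% and 0.418% of gene reads in xpo1-1 mex67-5 and 7.89% and 7.60% in the wild type.

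Every large-subunit gene fell. Of 81 genes tested, 81 were lower and 0 were higher in xpo1-1 mex67-5 by edgeR's quasi-likelihood test with Benjamini-Hochberg adjustment at 0.05, and the largest adjusted p among them was 2.55e-05. Across all 6563 genes tested, 46.3% were called lower and 46.8% higher, 93.1% in all, so a call alone says little here and the size of the change carries more. The median log2 change of the large-subunit genes was -4.06, or 16.7-fold lower, with quartiles of -4.62 and -3.52, whereas the median of all genes tested was 0.01. A change below -4 on the log2 scale was seen in 44 of the 81, against 1.90% of all genes tested, and one below -3 in 72 of the 81, against 4.48%. Both xpo1-1 mex67-5 libraries lay below both wild-type libraries for 81 of the 81 genes, an arrangement shared by 48.0% of all genes tested. The 56 small-subunit genes were also 56 of 56 lower, and their changes ran from -6.08 to -2.09 on the log2 scale around a median of -4.12.

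**Figure D1:**
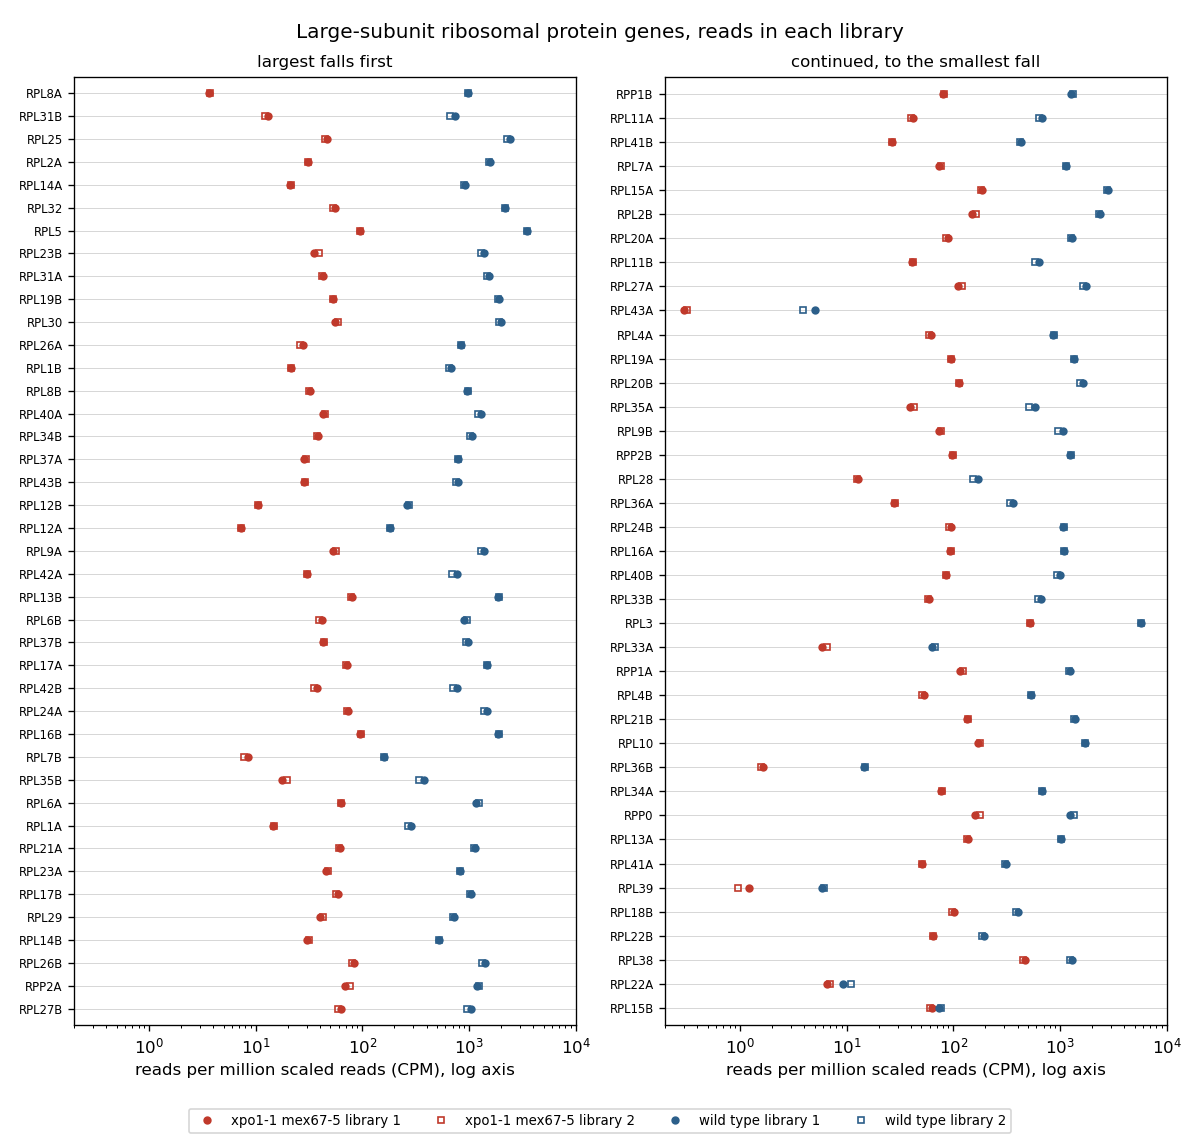
Reads per 1000000 scaled reads (CPM, log axis) of 80 large-subunit ribosomal protein genes in each library, ordered from the largest to the smallest fall. Red points are the 2 xpo1-1 mex67-5 libraries and blue points the 2 wild-type libraries; the pairs of points of a strain nearly coincide, and the distance between colours shrinks from 265-fold for RPL8A to 1.21-fold for RPL15B.

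The changes were spread widely around that median, as the plot of reads per gene shows. The largest fall was that of RPL8A (YHL033C, chromosome VIII, 35255 to 36025, minus strand, build R64, a single coding exon), 1 of 2 genes for Rpl8. It had 231 and 190 reads in xpo1-1 mex67-5, against 48953 and 48284 reads in the wild type. That is 3.71 ± 0.056 against 984 ± 5.35 CPM, reads per 1000000 scaled reads (SD, n = 2 each), a log2 change of -8.05 ± 0.054 (SE; adjusted p = 1.3e-22, edgeR) or 265-fold. The genes on either side did not show a fall of this size: SBP1 was at 311 CPM in xpo1-1 mex67-5 and 246 CPM in the wild type, and GUT1 was at 45.2 CPM in xpo1-1 mex67-5 and 126 CPM in the wild type.

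Other large falls were between 42.6-fold and 55.0-fold. RPL31B, whose protein sits at the rim of the exit tunnel, had 816 and 619 reads in xpo1-1 mex67-5 and 36355 and 32303 in the wild type. RPL25, the tunnel-rim protein at the docking site of the signal recognition particle, had 2941 and 2279 reads in xpo1-1 mex67-5 and 120193 and 112477 in the wild type, or 51.3-fold fewer CPM. RPL2A fell 49.8-fold and RPL14A 42.6-fold. In all of these the libraries of a strain lay close together and the strains were far apart.

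At the other end stood genes that changed little. RPL15B had 3941 and 3084 reads in xpo1-1 mex67-5 against 3610 and 3795 in the wild type. In CPM this was 61.8 ± 1.24 against 74.9 ± 2.97, a log2 change of -0.28 ± 0.040 (adjusted p = 4.21e-06, edgeR). RPL22A was at 6.73 ± 0.256 CPM in xpo1-1 mex67-5 and 10.1 ± 1.29 CPM in the wild type, a log2 change of -0.58, though reads of an overlapping frame on the opposite strand make this gene and RPL39 uncertain, as described further on. RPL38, which has no second copy, was the abundant exception, with 29362 and 22624 reads in xpo1-1 mex67-5 and 63824 and 61362 in the wild type, or 457 ± 14.1 against 1267 ± 29.8 CPM and a log2 change of -1.47 ± 0.040. RPL22B fell 2.97-fold and RPL39 5.44-fold. Only RPL15B and RPL22A, of all 81, changed by less than 2-fold.

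Per kilobase of coding sequence, the order of the genes differed between strains. The highest levels in xpo1-1 mex67-5 were those of RPL38 at 1927 CPM per kilobase, RPL41A at 652, RPL3 at 453 and RPP1A at 370. In the wild type RPL30 led at 6094 CPM per kilobase, then RPL32 at 5537, RPL25 at 5487 and RPL41B at 5445, with RPL38 next at 5344. RPL41A and RPL41B have only 78 coding bases each, against 1164 in RPL3, so their levels per kilobase may not be comparable with those of longer genes. Of coding stretches as long as a read, 69.0% occur in both RPL41A and RPL41B. How reads that match both were assigned is not known, so the separate levels and ranks of RPL41A and RPL41B are uncertain. The median gene was at 112 CPM per kilobase in xpo1-1 mex67-5 and 2304 in the wild type. Across the 81 genes the levels of the strains correlated with a Spearman rho of 0.70. This describes genes measured in the same libraries, which are not independent replicates.

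Genes of the peptide exit tunnel and its rim, 14 in all, had a median log2 change of -4.20 and ranged from -5.78 for RPL31B to -2.44 for RPL39. The 3 genes whose products form a particle with the smallest of the large-subunit RNAs before joining the ribosome fell alike in direction but not in size. RPL5, which has 1 copy, had 5947 and 4861 reads in xpo1-1 mex67-5 and 172687 and 170210 in the wild type, a 36.4-fold fall. RPL11A was at 41.1 ± 1.11 CPM in xpo1-1 mex67-5 and 658 ± 31.2 CPM in the wild type, and RPL11B fell 14.7-fold.

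The stalk, which recruits the translation GTPases, is built of Rpp0 at its base and the acidic proteins Rpp1 and Rpp2. RPP0 was at 168 ± 10.6 CPM in xpo1-1 mex67-5 and 1294 ± 69.7 CPM in the wild type, a log2 change of -2.94. RPP1A changed by -3.37, RPP2B by -3.68, RPP1B by -4.01 and RPP2A by -4.06 on the log2 scale. RPL12A and RPL12B, whose protein lies beside the stalk, changed by -4.62 and -4.67. The base gene RPP0 thus had the smallest fall of the 7 stalk genes, whose median was -4.01.

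Rpl10, Rpl24 and the ubiquitin fusion Rpl40 are among the proteins that join late, in the cytoplasm. Their 5 genes had a median log2 change of -3.52. RPL10, whose loading is tied to the release of the export adaptor Nmd3, had 10743 and 9028 reads in xpo1-1 mex67-5 and 85333 and 83485 in the wild type, a 9.79-fold fall. RPL40A fell 28.9-fold and RPL40B 11.3-fold. RPL3, a core protein near the peptidyl transferase centre and the large-subunit gene with most reads in the wild type, was at 527 ± 0.56 CPM in xpo1-1 mex67-5 and 5698 ± 34.6 CPM in the wild type, a 10.8-fold fall.

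Among the remaining genes without a second copy, RPL30 fell 33.9-fold, RPL32 40.1-fold, RPL29 17.5-fold and RPL28 12.7-fold. Rpl30 is known to bind its own transcript and hold back its splicing. The 11 unpaired genes had a median log2 change of -3.67, against -4.07 for the 70 paired genes. Genes with an intron, 53 in number, had a median of -4.15, and the 28 without one had -3.95. These medians lie closer to each other than the quartiles of the 81 genes.

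A separate reading is needed for 5 genes. In RPL22A, RPL28, RPL33A, RPL39 and RPL43A an open reading frame of at least 100 codons on the opposite strand covers at least 80% of the coding exon bases, and the gene tables hold a feature of the neighbouring number on that strand which the RefSeq annotation does not. The median level of these 5 was 18.4 CPM per kilobase in xpo1-1 mex67-5 and 38.4 in the wild type. That of the other 76 was 121 CPM per kilobase in xpo1-1 mex67-5 and 2329 in the wild type. The libraries do not mark strand, so reads of such a gene and of its opposite partner cannot be told apart, and the sources used here do not say how overlapping reads were assigned. For RPL39, a protein lining the exit tunnel, 76 and 49 reads were assigned in xpo1-1 mex67-5 and 292 and 300 in the wild type. The opposite feature, YJL188C, held 834 and 770 reads in xpo1-1 mex67-5 and 7929 and 7362 in the wild type. The levels and changes of these 5 genes are therefore uncertain. The limit of 80% was set after their low levels were seen. In RPL7B, RPL8A, RPL8B, RPL10, RPL12A, RPL12B and RPP0 such a frame covers between 47.8% and 68.1% of the coding exon bases. An unmatched opposite feature is listed for each of them too, so part of their reads may have the same limit. The opposite features, here and for the 5 genes, were picked by number and strand, and no coordinates show their overlap. Beside RPL8A, the feature YHL034W-A held 182 and 166 reads in xpo1-1 mex67-5 and 125 and 121 in the wild type. What this does to the 265-fold fall of RPL8A was not tested.

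Promoters were searched for the core of the Rap1 site, ACCCANNCA, on both strands of the 500 bases before each start codon. It was present in 32 of 81 large-subunit genes (39.5%), in 22 of 56 small-subunit genes (39.3%), and in 360 of 5992 promoter windows of all genes (6.01%). The motif nearest to the start codon began at a median of 286.5 bases before it, between 176 and 489. The stretches below, from the RefSeq sequence of build R64, show it in capitals for 3 motif-holding genes with large falls and for RPL38, whose fall was small, all read toward the gene.
RPL8A (chrVIII:36231-36289, minus strand): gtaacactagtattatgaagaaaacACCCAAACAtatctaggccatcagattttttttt
RPL14A (chrXI:431471-431529, plus strand): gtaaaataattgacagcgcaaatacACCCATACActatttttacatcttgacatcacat
RPL23B (chrV:396374-396432, plus strand): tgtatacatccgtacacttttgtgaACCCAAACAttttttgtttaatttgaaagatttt
RPL38 (chrXII:781615-781673, minus strand): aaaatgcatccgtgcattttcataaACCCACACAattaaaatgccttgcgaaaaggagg
Genes with the motif had a median log2 change of -4.20, and the 49 without it -3.99. It occurred in 10 of the 20 genes with the largest falls and in 5 of the 20 with the smallest, and a match is only a run of letters, not a measured binding site.

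The A and B copies of a protein can be compared within each library. The difference between copies was tested in 1 model of both copies with a term per library, for 61 pairs of genes in all, which include 26 pairs outside the large subunit. The copies changed by different amounts in 31 of the 35 large-subunit pairs (edgeR, adjusted p under 0.05). Over all 61 pairs, which include these 35, 93.4% were called, and of the 26 other pairs 26 were called. A call alone thus does not set the large-subunit pairs apart. The A copy fell more in 17 of the 31 and the B copy in 14. The median difference between copies was 0.78 on the log2 scale, or 1.72-fold, and it exceeded 1 in 11 pairs.

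**Figure D2:**
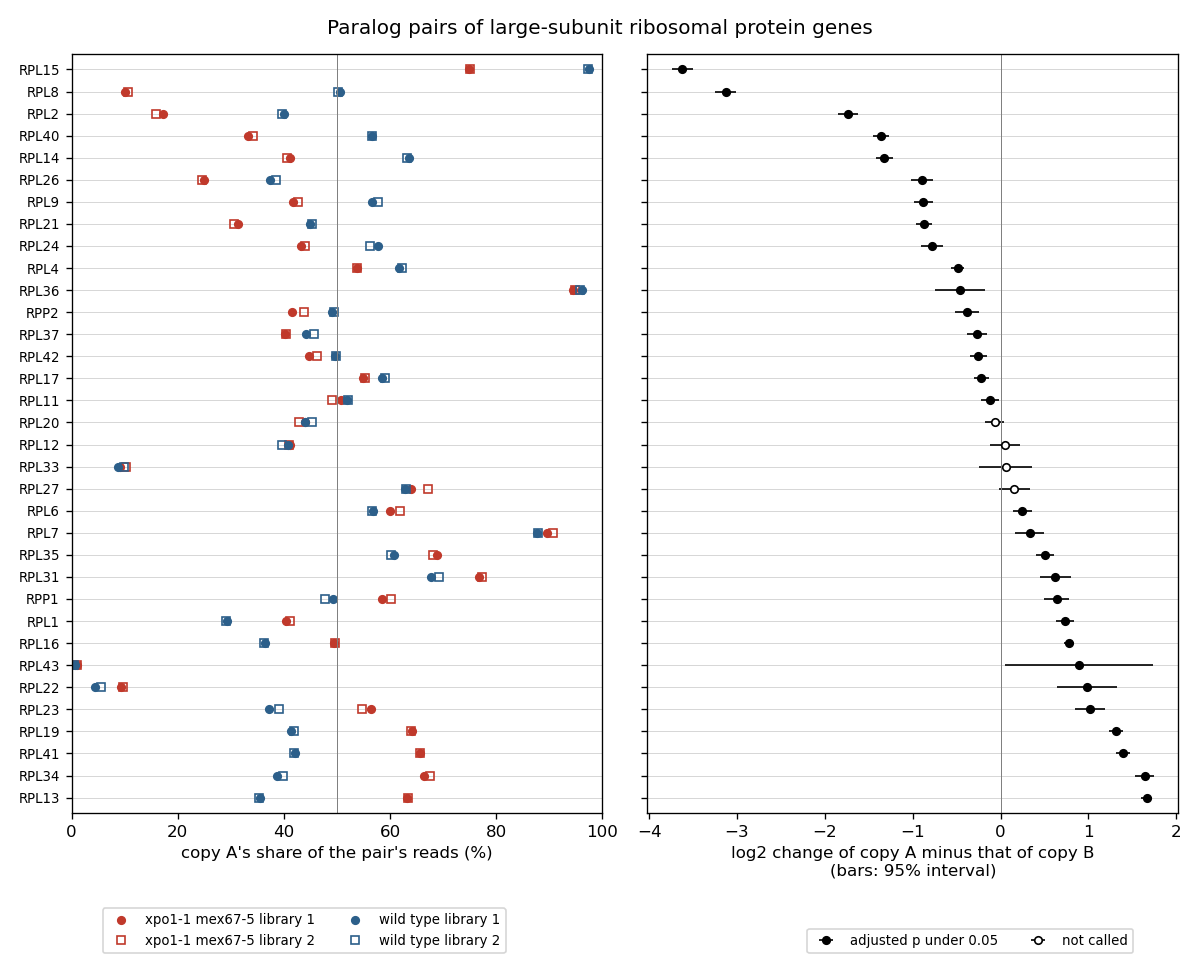
Left, copy A's share of the reads of each of 34 paralog pairs (%) in each library, red for xpo1-1 mex67-5 and blue for the wild type. Right, the log2 change of copy A minus that of copy B with its 95% interval, filled where the adjusted p was under 0.05; RPL15 and RPL8 stand apart at the top with differences of -3.62 and -3.13.

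The largest difference was in RPL15, a core protein bound deep in the ribosomal RNA. RPL15A made up a mean of 74.9% of the pair's reads in xpo1-1 mex67-5, where the libraries differed by little, against 97.5% and 97.3% in the wild type. RPL15A fell 14.9-fold while RPL15B fell 1.21-fold, a log2 difference of -3.62 ± 0.046 (SE; adjusted p = 2.99e-07, edgeR). The start of the coding sequences shows how far reads of 50 bases can separate these copies, with the bases that differ in capitals.
RPL15A (chrXII:202471-202590, minus strand): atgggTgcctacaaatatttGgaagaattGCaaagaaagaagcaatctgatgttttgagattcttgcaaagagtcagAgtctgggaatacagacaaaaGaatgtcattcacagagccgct
RPL15B (chrXIII:510229-510348, minus strand): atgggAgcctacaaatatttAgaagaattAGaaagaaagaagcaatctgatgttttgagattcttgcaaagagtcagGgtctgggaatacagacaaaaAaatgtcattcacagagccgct
These 120 bases hold 6 differences, and the whole coding sequences of 615 bases hold 42. Of all windows of 50 bases in the coding sequences of RPL15A and RPL15B, 11.8% occur in both.

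In RPL8 the A copy was at 10.1% and 10.7% in xpo1-1 mex67-5 and at 50.6% and 50.2% in the wild type, with a log2 difference of -3.13 ± 0.046. The first 120 coding bases of RPL8A and RPL8B, with 7 differences in capitals, are shown because the largest fall of all rests on telling these copies apart.
RPL8A (chrVIII:35906-36025, minus strand): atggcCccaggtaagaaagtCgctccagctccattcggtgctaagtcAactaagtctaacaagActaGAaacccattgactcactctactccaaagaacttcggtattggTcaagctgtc
RPL8B (chrXII:48510-48629, minus strand): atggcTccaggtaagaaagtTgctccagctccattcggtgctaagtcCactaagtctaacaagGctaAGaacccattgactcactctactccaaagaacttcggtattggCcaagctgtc
Over the 771 coding bases RPL8A and RPL8B differ at 38, and 6.93% of windows of 50 bases occur in both.

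RPL2 came next, with the A copy at a mean of 16.6% of the pair's reads in xpo1-1 mex67-5 and 39.9% in the wild type, a log2 difference of -1.73 ± 0.044. In RPL13 and RPL34 it was the B copy that fell more. RPL13A made up 63.3% and 63.4% of its pair in xpo1-1 mex67-5, against 35.4% and 35.2% in the wild type, a log2 difference of 1.66 ± 0.022. RPL34A made up 66.5% and 67.4% in xpo1-1 mex67-5, against 38.8% and 39.9% in the wild type, a difference of 1.64 ± 0.041.

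The copy with more reads per coding base changed between strains in 14 of the 35 pairs. They include RPL8, RPL9, RPL11, RPL13, RPL14, RPL19, RPL23, RPL24, RPL34, RPL40, RPL41, RPP1 and RPP2. In RPP2 the order of the copies in the wild type rests on 1 library, since RPP2A and RPP2B were at 3731 and 3741 CPM per kilobase in library 1 and at 3837 and 3773 in library 2. In RPL11 the change was slight, with the A copy at 50.7% and 49.1% in xpo1-1 mex67-5 and 51.9% and 52.1% in the wild type. The copy with the higher level in the wild type fell more in 24 of the 35 pairs. Since the wild-type level enters both the choice of that copy and its change, this count is a description and was not tested. RPL41, which encodes the smallest ribosomal protein, had its A copy at 65.6% of reads in each xpo1-1 mex67-5 library and at 42.2% and 42.0% in the wild type.

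Copies of 4 pairs did not differ past the threshold. The log2 difference was 0.05 in RPL12 (95% interval -0.124 to 0.222), 0.06 in RPL33 (-0.24 to 0.362), -0.07 in RPL20 (-0.175 to 0.0437) and 0.16 in RPL27 (-0.0191 to 0.333). The smallest called difference, -0.12 in RPL11 (adjusted p = 0.0389, edgeR), did not pass with DESeq2 or without xpo1-1 mex67-5 library 2 (-0.074), wild-type library 1 (-0.13) or wild-type library 2 (-0.11). Conversely, RPL27 passed with DESeq2 (0.16) and without xpo1-1 mex67-5 library 1 (0.26) or wild-type library 1 (0.15), RPL20 without wild-type library 1 (-0.10) and RPL33 without wild-type library 2 (0.15). The RPL22, RPL33 and RPL43 pairs each hold an A copy overlapped on the opposite strand, so their differences are uncertain.

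Copies that are nearly the same cannot be separated read by read. Coding identity ran from 69.2% in RPP1 to 99.4% in RPL1, with a median of 93.2%, and the share of 50-base windows found in both copies from 0% in 10 pairs to 81.0% in RPL1. In the 8 pairs with at least 40% of windows shared, the median difference between copies was 0.50, and in the 27 with less it was 0.87. The sources used here do not say how reads that match both copies were assigned, and the part of this in the differences was not tested. Summed over copies, which removes the split of reads between copies but not any loss of shared reads, the 46 proteins had a median log2 change of -3.97. RPL8 was lowest at -5.78 (35.7 ± 0.88 CPM in xpo1-1 mex67-5 and 1953 ± 0.36 CPM in the wild type), RPL15 was at -3.52, RPL22 at -1.50 and RPL38 highest at -1.47. The RPL22 sum rests mostly on RPL22B, with 64.4 of 71.1 CPM in xpo1-1 mex67-5 and 191 of 201 CPM in the wild type. It is uncertain because RPL22A is overlapped on the opposite strand.

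Most introns of the large-subunit genes fell less than the genes did. In the 29 counted introns, reads summed to 20779 and 16453 in xpo1-1 mex67-5 and to 81801 and 79498 in the wild type. Per 100 reads of the same genes this was 18.9 and 18.4 intron reads in xpo1-1 mex67-5, against 4.89 and 4.92 in the wild type. They made up 22.1% and 21.7% of all intron reads in xpo1-1 mex67-5 and 45.2% in each wild-type library. The other 26 intron records, on 7 chromosomes where every record holds 0 reads, were treated as not counted and are not analysed here, among them RPL30, RPL28, RPL22A, RPL7A and RPL7B.

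The ratio of intron to gene reads rose in 24 of the 29 introns, fell in 0 and passed no threshold in 5 (edgeR interaction test, adjusted p under 0.05). At an unadjusted p under 0.05 there were also 0 lower, and DESeq2 called 0 lower. Over all 135 introns tested, 78.5% were higher and 8.15% lower, so the share of rises here is near the background. The median change was 1.66 on the log2 scale, or 3.17-fold, against 1.03 for all introns tested and 0.96 for the 106 introns outside these genes. The 19 small-subunit introns had a median of 1.42, with 16 higher and 2 lower. Whether the large-subunit introns differ from the rest was not tested.

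Per base, introns of the median gene stood at 16.7% of the coding level in xpo1-1 mex67-5 and 4.99% in the wild type. The largest rise was in RPL35A, which encodes a protein of the tunnel rim. Its intron had 2150 and 1644 reads in xpo1-1 mex67-5 and 3170 and 2861 in the wild type, which is 64.3% and 56.7% of the coding level in xpo1-1 mex67-5 and 8.15% and 8.41% in the wild type. The log2 ratio change was 2.87 ± 0.060 (SE; adjusted p = 2.11e-12, edgeR), or 7.32-fold. An alternative took intron reads from gene reads first, which assumes that gene reads include them. RPL35B had 1236 intron reads against 1117 gene reads in xpo1-1 mex67-5 library 1, so the assumption fails there. For the RPL35A intron this alternative gave 5.19 ± 0.41 (SE), a value that rests on that assumption. Its gene and RPL35B share 80.6% of 50-base coding windows, and the sources used here do not say how reads that match both copies were assigned, so the coding levels of this pair, and the percentages that rest on them, are uncertain. RPL43B followed with 56.8% and 50.8% in xpo1-1 mex67-5 and 7.44% and 7.41% in the wild type. RPL35B, the second copy, had the highest percentage apart from RPL39, at 99.2% and 96.6% in xpo1-1 mex67-5 and 14.2% and 15.4% in the wild type. RPL16A rose by 2.36, RPL23A by 2.36 and RPL2A by 2.35 on the log2 scale.

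**Figure D3:**
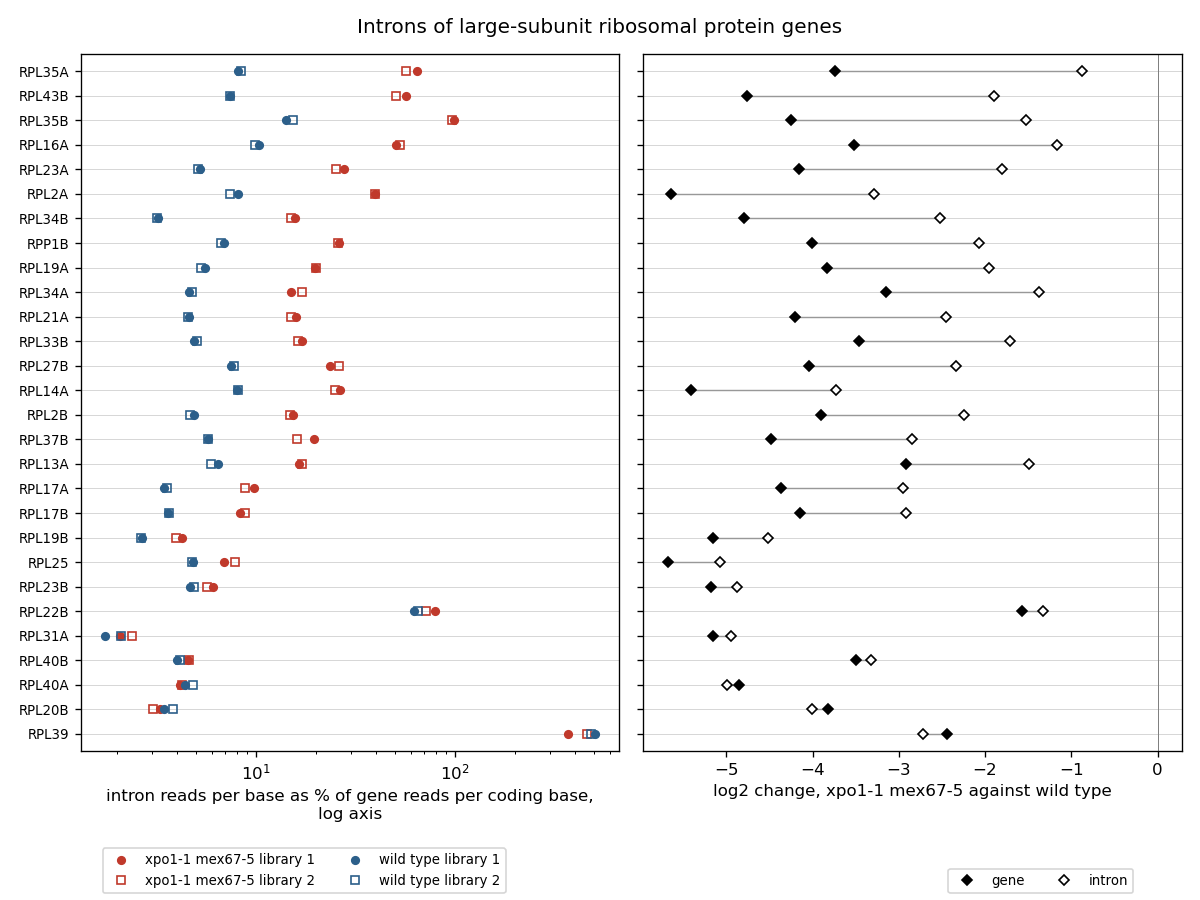
Left, intron reads per base as a percentage of gene reads per coding base (log axis) for 28 introns of large-subunit genes in each library, red for xpo1-1 mex67-5 and blue for the wild type. Right, log2 change of the gene (filled) and of its intron (open); the open symbols lie between -5.07 and -0.87, to the right of the filled ones except in RPL40A, RPL20B and RPL39.

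Introns without a clear change were those of RPL31A, RPL40B, RPL40A, RPL20B and RPL39. RPL31A was at 2.09% and 2.38% of the coding level in xpo1-1 mex67-5 and at 1.75% and 2.11% in the wild type. RPL40B was at 4.58% and 4.59% in xpo1-1 mex67-5 and at 4.02% and 4.17% in the wild type. RPL40A was at 4.14% and 4.25% in xpo1-1 mex67-5 and at 4.42% and 4.82% in the wild type, and RPL20B was at 3.31% and 3.06% in xpo1-1 mex67-5 and at 3.44% and 3.84% in the wild type. In RPL39 the intron was above its gene in both strains, at 371% and 461% in xpo1-1 mex67-5 and 505% and 483% in the wild type, and that gene is 1 of the 5 with an overlapped coding exon. Without wild-type library 2 the RPL31A ratio passed as higher (0.34), without wild-type library 1 that of RPL20B as lower (-0.26), and without xpo1-1 mex67-5 library 2 that of RPL39 as lower (-0.42).

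RPL22B, whose splicing is known to be held back by its own protein, had an intron at 79.2% and 71.4% of the coding level in xpo1-1 mex67-5 and at 62.4% and 65.5% in the wild type. This was the highest wild-type value apart from RPL39, and its ratio change was small, at 0.24. It did not pass without wild-type library 1 (0.20). Taking intron reads from gene reads first gave 0.61, which rests on the assumption that failed for RPL35B. Relative to its gene the intron of RPL25 rose 1.52-fold.

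Both copies had a counted intron in 7 pairs. In RPL23 the A intron rose 5.12-fold relative to its gene (log2 2.36, 95% interval 2.22 to 2.49) and the B intron 1.24-fold (0.31, 0.0928 to 0.52); the call of the RPL23B intron was lost without xpo1-1 mex67-5 library 1 (0.25). In RPL19 the A intron rose 3.67-fold and the B intron 1.56-fold. In RPL35 and RPL17 the copies lay together, at 7.32-fold and 6.62-fold, and at 2.66-fold and 2.34-fold. Intervals of the copies were apart in 4 of the 7, although the difference itself was not tested.

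Scaled to gene reads, intron abundance fell in 29 of 29 introns, by a median log2 change of -2.53 within a range from -5.07 in RPL25 to -0.87 in RPL35A. Over all 136 introns tested for abundance, 60.3% were lower and 31.6% higher. Scaled to the totals of intron reads instead, the 29 changes shifted up by a median of 0.97, to a median of -1.55, and 28 were lower and RPL35A was higher, at 0.10. Across the 29, gene and intron changes had a Spearman rho of 0.70, which describes values from the same libraries. The change of the gene and that of the ratio had a rho of 0.01.

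Splice signals were read from the RefSeq sequence of build R64. Of the 29 introns, 24 begin with GTATGT and 28 hold the branch sequence TACTAAC, read on the transcribed strand only. Among all 159 counted introns with a RefSeq end, 62.9% begin with GTATGT and 69.2% hold TACTAAC. From its first base, TACTAAC lies at a median of 44 bases before the end of these introns. The 20 bases at the start of each intron, with the first 6 in capitals, are given for the 3 largest rises and for 3 introns without a clear change.
RPL35A (chrIV:117667-117686, plus strand): GTATGTttgagatgaacaaa
RPL43B (chrX:608307-608326, plus strand): GTATGCatataatagaggaa
RPL35B (chrIV:217603-217622, plus strand): GTATGTagagatgaatatac
RPL31A (chrIV:322283-322302, plus strand): GTATGTgaaagaataaaaat
RPL40A (chrIX:68716-68735, plus strand): GTATGCaccatatccattct
RPL20B (chrXV:901174-901193, minus strand): GTATGTaatagaatgtattg
The ends of the same introns, from 5 bases before the branch sequence in capitals, read as follows.
RPL35A (chrIV:118099-118157, plus strand): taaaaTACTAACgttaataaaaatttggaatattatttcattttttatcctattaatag
RPL43B (chrX:608538-608581, plus strand): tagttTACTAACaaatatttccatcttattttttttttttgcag
RPL35B (chrIV:217960-218007, plus strand): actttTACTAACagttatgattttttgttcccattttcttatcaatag
RPL31A (chrIV:322664-322703, plus strand): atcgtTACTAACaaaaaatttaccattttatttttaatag
RPL40A (chrIX:69104-69149, plus strand): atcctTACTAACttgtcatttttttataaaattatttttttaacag
RPL20B (chrXV:900768-900815, minus strand): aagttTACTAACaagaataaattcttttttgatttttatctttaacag
The 5 introns with another start sequence were RPL43B, RPL40A, RPL16A, RPL27B and RPL22B. Their ratio changes ran from -0.14 in RPL40A to 2.86 in RPL43B, so a variant start occurred at both ends of the range, as did the usual one. RPL19A, the intron without TACTAAC, changed by 1.87.

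Lists of genes that serve the large subunit had smaller median changes than its proteins. The first list holds 20 transcription factors and regulators, not all of them regulators of ribosomal protein genes. In it 9 were higher, 9 were lower and 2 did not pass the test (edgeR, adjusted over all genes), with a median log2 change of 0.07. Of all genes tested 46.8% were higher and 46.3% lower, so this split is that of the background. RAP1 was at 365 ± 8.33 CPM in xpo1-1 mex67-5 and 202 ± 0.31 CPM in the wild type, a log2 change of 0.85. FHL1, which binds these promoters, changed by 0.08, and its co-activator IFH1 by 0.06 (adjusted p = 0.144, edgeR). SFP1, an activator, rose by 0.80, and CRF1, a repressor that competes with Ifh1, rose by 1.21. The members with the smallest adjusted p were CKB2, a subunit of casein kinase 2, at -2.51 and UTP22 at -2.11, and both fell.

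Of 18 listed chaperones, importers and related factors, not all of them dedicated to ribosomal proteins, 17 were lower and 1 was higher. Among all genes tested 46.3% were lower and 46.8% higher. The median log2 change of this list was -2.62. RRB1, the chaperone of Rpl3, was at 37.1 ± 0.93 CPM in xpo1-1 mex67-5 and 406 ± 8.72 CPM in the wild type, a log2 change of -3.45. SYO1, which imports Rpl5 with Rpl11, changed by -2.89, SQT1, the chaperone of Rpl10, by -1.57, and ACL4, the chaperone of Rpl4, by -2.36. The ribosome-bound chaperone SSB2 changed by -3.06. BTT1, a minor subunit of the nascent polypeptide-associated complex, was the member that rose, by 0.53.

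The last list holds 16 genes linked to export of the large subunit, not all of them export factors. In it 13 were lower and 3 higher, beside 46.3% and 46.8% of all genes, with a median log2 change of -2.09. NMD3, the adaptor between the particle and Xpo1, had a log2 change of -3.44, and so did NPL3. TIF6 changed by -1.52 and CRM1, which encodes Xpo1, by -0.21. MEX67 rose by 3.64, MTR2, which encodes its partner, by 0.23, and GLE2 by 0.48.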

How the data were processed

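For each of 4 libraries the authors deposited counts, whole numbers of reads for genes and for introns in separate tables. RNA was poly(A) selected and read as single 50-base reads with a kit that does not mark strand, per the labels' protocols. Build R64 and the tools featureCounts, STAR 2.5, bcl2fastq 2.17 and DESeq2 1.8.2 are named in the submitters' processing notes, without their roles. Names, coordinates and sequences came from RefSeq R64, which matched 6048 of 7126 features. Unused columns of per-sample values numbered 0.

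Genes were tested with edgeR 4.0.16 (filterByExpr, TMM factors 0.994 to 1.01, robust quasi-likelihood F-test, two-sided, model of strain, Benjamini-Hochberg at 0.05). CPM are reads per 1000000 scaled reads. Paralog pairs and intron-to-gene ratios used the same test on the feature-by-strain interaction with a term per library; introns needed 10 reads over the 4 libraries. Standard errors are the log2 change over the root of F, and 95% intervals use the fit's degrees of freedom. Libraries of a strain were not the same within counting error (chi-square over degrees of freedom 7.15 in xpo1-1 mex67-5 and 10.6 in the wild type), and the biological coefficient of variation was 2.95%. The main fits of genes, pairs and intron ratios were tested on simulated data, and the intron abundance fit and the alternatives were not. At a simulated 1.5-fold change, 100% of 50 genes, 75% of 8 pairs and 80% of 10 intron ratios were recovered.

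The members and lists were chosen with earlier results of these data known. The genes named are the 6 largest falls and 6 smallest changes, fixed members by role or lack of a pair, the 4 highest levels per strain, the 6 largest and 4 smallest pair differences, the 6 largest and 4 smallest intron ratio changes, fixed introns, and of each other list the 2 smallest adjusted p-values and any call against the rest. Further names were chosen after their values were seen. Alternatives were other scalings, DESeq2 1.42.0, filters, thresholds, gene reads less intron reads, a replicate block and leaving out each library. A gene that the rule names, with its pair and its intron, is counted in the totals but not reported here by itself.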

Additional observations from a re-analysis of the deposited data

How the results depend on the processing

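All 81 large-subunit genes stayed lower under each of the alternative scalings, filters and tools and without each library, and none of the single-gene changes crossed the threshold. The count of pairs whose copies differ fell to 11 when copies also had to differ by 1 or more (log2). With intron reads scaled to intron totals in place of gene totals, 28 introns were called lower and 1 was called higher in abundance, that of RPL35A at 0.10, with the shift in scale built into the alternative. Introns called lower in ratio numbered 0 to 1 when single libraries were left out, with RPL39 lower without xpo1-1 mex67-5 library 2 and RPL20B lower without wild-type library 1. The difference between the RPL33 copies ran from -0.0305 to 0.156 over the libraries left out, turning negative without wild-type library 1 (-0.0305) and without xpo1-1 mex67-5 library 2 (-0.0221), and the cause was not tested. The rise of the RPL23B intron ratio lost its call under the replicate block and without xpo1-1 mex67-5 library 1, and that of RPL22B without wild-type library 1. The labels do not say that shared replicate numbers pair the libraries. The correlation of same-numbered deviations was -0.039, a single value over genes that cannot exclude pairing. With the replicate block, the 81 genes kept a median of -4.06, all lower. In that fit 30 pairs differed (that of RPL11, at -0.12, was lost), and 23 intron ratios were higher. Members with few reads, such as RPL43A (19 and 16 reads in xpo1-1 mex67-5), are limited by depth.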
